A study of Bos taurus with 27 samples.

Results

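Across the ileum libraries of 27 newborn calves, 8 of the 24616 genes in the count table were at high levels in a few calves and low or undetected in the rest, and did so in 2 or more animals. A gene was counted as on in a calf when its level reached 100 CPM (the gene's count over the library's total count, times 1000000) and also 50 times its own median over the 27 calves, with medians under 1 CPM taken as 1. The 8 genes on in at least 2 calves were 0.0325% of the table. A further 5 genes were on in exactly 1 calf, so that 13 genes, 0.0528% of the table, were on at all. The genes were chosen by these levels, so their on and off levels are a description and carry no test. The feeding groups were not used in the choice.

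The animals were male Holstein calves, a dairy breed, assigned at random to first receive colostrum right after birth (0 h), at 6 h or at 12 h, with 9 calves in each group, and the ileum was taken at 51 h of age. No calf gave more than 1 library, and replicates of a group are different animals. The design asks whether the time of the colostrum meal leaves a trace in the transcripts of the ileum.

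The ileum is the last part of the small intestine. Its lining of absorptive cells takes up nutrients and bile acids, and in young cattle its wall carries a large continuous Peyer's patch, a lymphoid organ in which B cells multiply. Colostrum, the first milk, brings maternal antibodies that the gut of the newborn calf can pass into the blood for only a limited time after birth. A piece of ileum holds epithelium, lymphoid tissue, muscle and vessels together, so in these bulk libraries more cells of one kind and more RNA per cell cannot be told apart.

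Genes appear in the count table under their Ensembl identifiers, and none is paired with a name. No identifier of the 8 genes was found in the gene table used as reference (0 of 8), so the genes are given by identifier, without a position, a sequence, a role or a protein. For the same reason the tissue label was not checked against marker genes. The levels are not divided by gene length, so they are compared between calves for one gene and not between genes.

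Library totals ran from 972578 to 7125552 counts, with medians of 1626626 at 0 h, 1346552 at 6 h and 3326867 at 12 h. A count of 0 therefore allowed a level of up to 0.421 CPM in the deepest library and up to 3.08 CPM in the shallowest (3 counts of the total, for counting error only). Every on value rested on at least 241 counts. In 15 of the 30 on values the gene was among the 10 genes with the most counts in that calf, without regard to length. The 9 calves with no member on had totals from 972578 to 7125552 (median 2262714) and the 18 calves with at least 1 on from 996785 to 3566631 (median 1469805), so the ranges overlapped. The part of depth in the on state was not tested.

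ENSBTAG00000047154 was on in the largest number of calves, 7 of 27, and its on levels lay close together. At 0 h its levels ran from 8.04 to 12663 CPM with a median of 44.0. At 6 h they ran from 0.442 to 12042 CPM with a median of 146. At 12 h they ran from 4.63 to 10710 CPM with a median of 29.3. The feeding groups overlapped over almost their whole range.

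The calves with this gene on were replicate 4 at 0 h (12663 CPM), replicates 2, 3, 6 and 7 at 6 h (10043, 12042, 10098 and 10042 CPM) and replicates 1 and 2 at 12 h (7468 and 10710 CPM). The highest on value was 1.70 times the lowest, whereas the lowest on value was 3.23 times the highest off value. In the calf at 12663 CPM the gene took 1.27% of all counts (95% Wilson interval 1.25% to 1.28%, which covers counting error only, since reads without molecular identifiers are not independent molecules). By count it ranked from 5 to 7 among all genes in these 7 calves.

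The off calves of ENSBTAG00000047154 were not silent. Of 20 off calves, 15 held 10 CPM or more and 1 held less than 1 CPM. Replicate 7 at 0 h stood between the states at 2314 CPM, just under the bound of 2647 CPM that the rule sets for this gene. The next off calves were at 202 CPM (replicate 6 at 12 h), 146 CPM (replicate 4 at 6 h) and 144 CPM (replicate 5 at 6 h). This gene thus had 7 calves at 7468 CPM or more, 1 calf at 2314 CPM and 19 calves at or under 202 CPM.

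**Figure D1:**
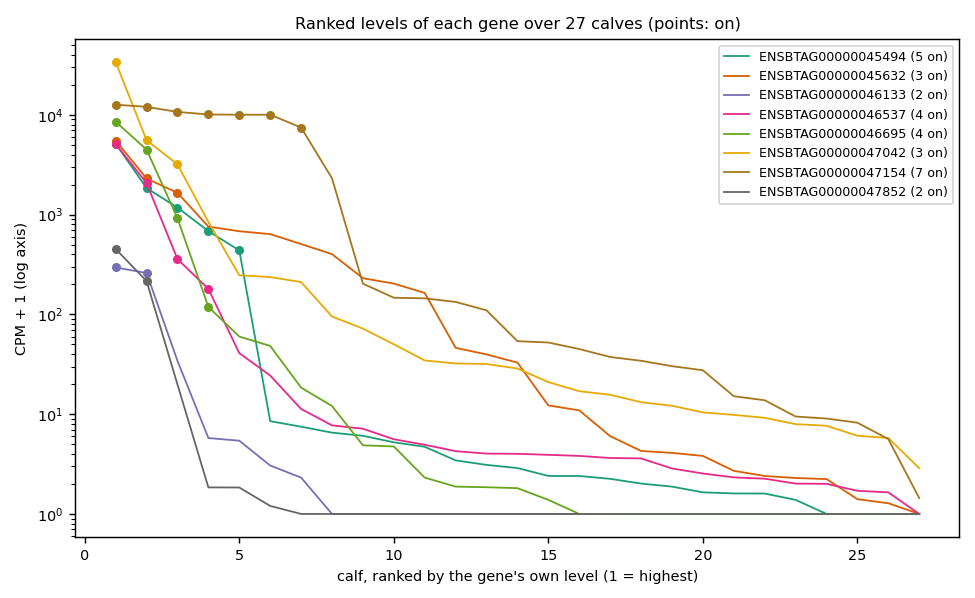
Levels of each of the 8 genes in the 27 calves, ranked from its own highest calf (horizontal axis: rank; vertical axis: CPM + 1 on a log scale; points mark calves in which the gene was on). ENSBTAG00000047154 holds a plateau between 7468 and 12663 CPM over 7 calves and ENSBTAG00000045494 drops from 437 to 7.51 CPM after its 5 on calves, while ENSBTAG00000045632 declines with no such step.

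ENSBTAG00000047042 took the largest share of a calf's counts among the 8 genes, without regard to length, and was on in 3 calves. At 0 h its levels ran from 6.94 to 33888 CPM with a median of 49.2. At 6 h they ran from 1.87 to 5580 CPM with a median of 11.1. At 12 h they ran from 4.77 to 844 CPM with a median of 15.999, and no calf was on. Single calves stood far above the rest in each group, while the medians stayed under 50 CPM.

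The on calves of ENSBTAG00000047042 were replicates 4 and 8 at 0 h (33888 and 3192 CPM) and replicate 6 at 6 h (5580 CPM). In replicate 4 at 0 h it was the third gene by count and took 3.39% of the library (51633 counts, 95% Wilson interval 3.36% to 3.42%). A further 4 off calves held 100 CPM or more, led by replicate 9 at 12 h at 844 CPM, and none of the 27 calves was at 0.

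ENSBTAG00000045632 was on in 3 calves but had the most gradual distribution. At 0 h its levels ran from 0 to 5530 CPM with a median of 163. At 6 h they ran from 1.29 to 1654 CPM with a median of 230. At 12 h they ran from 0.281 to 637 CPM with a median of 2.82. Levels of 10 CPM or more were seen in 6 of 9 calves at 0 h, 7 of 9 at 6 h and 2 of 9 at 12 h.

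The on calves of ENSBTAG00000045632 were replicates 5 and 8 at 0 h (5530 and 2305 CPM) and replicate 5 at 6 h (1654 CPM). Among the 24 off calves, 8 held 100 CPM or more, up to 759 CPM in replicate 3 at 0 h. The lowest on value, 1654 CPM, was just inside this gene's bound of 1594 CPM. For this gene the on calls split a continuous range, and 70.9% of all its counts came from the 3 on calves.

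ENSBTAG00000045494 showed the widest gap between its states. It was on in 5 calves, and all 22 others were at or below 7.51 CPM. At 0 h its levels ran from 0.384 to 5147 CPM with a median of 4.23. At 6 h they ran from 0 to 1845 CPM with a median of 0.646. At 12 h they ran from 0 to 683 CPM with a median of 1.402. The lowest on value was 58.2 times the highest off value, and the 5 on calves held 99.1% of the gene's counts.

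The on calves of ENSBTAG00000045494 were replicates 2 and 4 at 0 h (5147 and 437 CPM), replicates 2 and 8 at 6 h (1845 and 1177 CPM) and replicate 5 at 12 h (683 CPM). Every feeding group therefore held at least 1 on calf. The on values differed from one another by 11.8 times, unlike the plateau of ENSBTAG00000047154.

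ENSBTAG00000046537 was on in 4 calves, all from the delayed groups. At 0 h its levels ran from 0 to 39.9 CPM with a median of 3.26. At 6 h they ran from 0.646 to 358 CPM with a median of 3.03. At 12 h they ran from 1.02 to 5113 CPM with a median of 2.82. The medians of the 3 groups lay close together, while the means were 7.25, 64.2 and 800.2 CPM (SD 12.4, 124 and 1756, n = 9 each).

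The on calves of ENSBTAG00000046537 were replicates 5 and 7 at 6 h (358 and 179 CPM) and replicates 5 and 9 at 12 h (2069 and 5113 CPM). Replicate 7 at 6 h was just inside the bound of 150 CPM. The highest off value was 39.9 CPM, in replicate 3 at 0 h.

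ENSBTAG00000046695 was on in 4 calves, 3 of them fed at 12 h. At 0 h its levels ran from 0 to 118 CPM with a median of 1.31. At 6 h they ran from 0 to 59.0 CPM with a median of 0. At 12 h they ran from 0 to 8544 CPM with a median of 0.853. In 12 of the 27 calves no read of this gene was counted.

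The on calves of ENSBTAG00000046695 were replicates 3, 5 and 6 at 12 h (8544, 4490 and 920 CPM) and replicate 9 at 0 h (118 CPM). The last of these was just inside the bound of 100 CPM and the on values covered a 72.5-fold range. At 12 h the other 6 calves were all under 1 CPM. The gene's highest level was thus in this group, while its lowest level, 0 CPM, was found in each group.

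ENSBTAG00000046133 and ENSBTAG00000047852 were undetected in most calves, at 0 counts in 20 and 21 of 27. ENSBTAG00000046133 was on in replicates 3 and 5 at 12 h (259 and 295 CPM). Its next value was 33.3 CPM, in replicate 9 at 12 h, and the highest level outside the 12 h group was 4.42 CPM. ENSBTAG00000047852 was on in replicate 7 at 0 h (452 CPM) and replicate 5 at 6 h (215 CPM). Its next value was 18.9 CPM, in replicate 9 at 0 h, and no calf fed at 12 h exceeded 0.841 CPM.

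**Figure D2:**
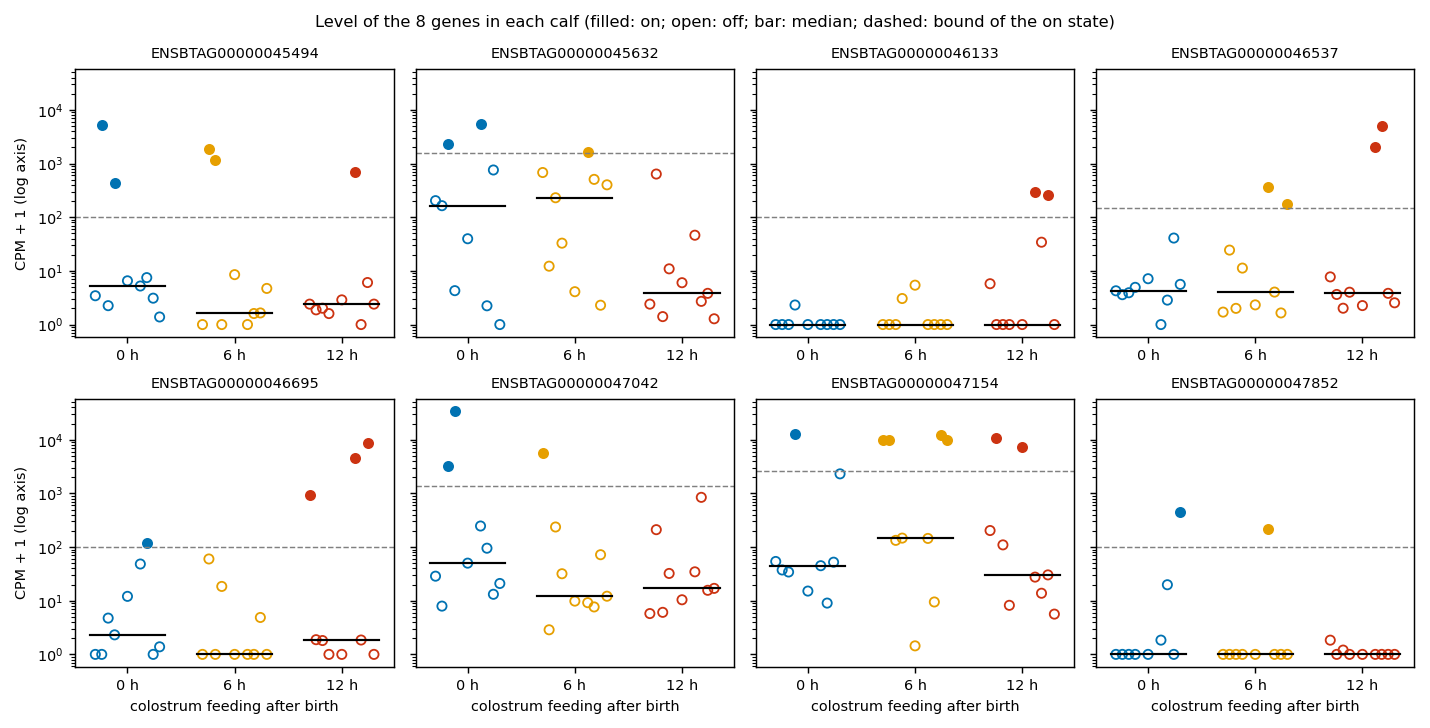
Level of each of the 8 genes by time of the colostrum meal (vertical axis: CPM + 1, log scale; each point is a calf; filled points are on, open points off, bars the median of 9 calves, dashed lines the bound of the on state). On calves sit far above medians that stay at or under 230 CPM in each gene and group.

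On states were found in each feeding group. Of the 30 on values, 9 fell at 0 h, 11 at 6 h and 10 at 12 h. Each group had 6 of 9 calves with at least 1 of the genes on. These totals add different genes together, and some on values share a calf, so they do not test evenness. Single genes differed in the groups where their on calves fell. Gene by gene, the counts of on calves at 0 h, 6 h and 12 h were compared by a two-sided exact test (Freeman-Halton, over all ways to place the on calves in the 3 groups). None of these 8 tests passed a threshold of 0.05, and their p-values are unadjusted.

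ENSBTAG00000047154 was on in 1, 4 and 2 calves at 0 h, 6 h and 12 h (exact p = 0.418). ENSBTAG00000046695 was on in 1, 0 and 3 (exact p = 0.28), and ENSBTAG00000046537 in 0, 2 and 2 (exact p = 0.502). ENSBTAG00000045494, on in 2, 2 and 1 calves, had exact p = 1. These 4 genes are the ones with enough on calves for the test to reach 0.05.

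With fewer on calves the test could not reach that threshold. ENSBTAG00000045632 and ENSBTAG00000047042, each on in 2, 1 and 0 calves, had exact p = 0.751, where the smallest p possible is 0.0862. ENSBTAG00000046133 had both of its on calves at 12 h, which is the most uneven result that 2 calves can give, and its exact p of 0.308 is the smallest possible. ENSBTAG00000047852, on in 1, 1 and 0, had exact p = 1.

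Levels were also compared by edgeR's quasi-likelihood test over all 22939 genes with a count, with Benjamini-Hochberg adjustment over all of them. The test called 0 of the 8 genes between 6 h and 0 h, where it called 0.0% of all genes. Between 12 h and 0 h it called 0 of 8 (all genes: 0.00436%), between 12 h and 6 h 0 of 8 (all genes: 0.0%), and for any difference among the 3 groups 0 of 8 (all genes: 0.0%). The smallest adjusted p among the 8 genes was 0.392, in the test of any difference, shared by ENSBTAG00000046133 and ENSBTAG00000046695. limma voom, run with a quality weight for each library, also called 0 of 8 in each comparison.

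At an unadjusted p under 0.05, edgeR listed 6 of the 8 genes between 12 h and 0 h (all genes: 4.24%), 0 between 6 h and 0 h (4.59%), 4 between 12 h and 6 h (5.83%) and 5 for any difference (5.43%). In the order 6 h and 0 h, 12 h and 0 h, 12 h and 6 h, and any difference, DESeq2 listed 3, 6, 3 and 6 of the 8 at that level (all genes: 2.34%, 2.28%, 3.37% and 2.65%). DESeq2 without its replacement of outlying counts listed 1, 6, 4 and 5 (all genes: 2.35%, 2.29%, 3.37% and 2.65%). limma voom listed 0 of the 8 in each (all genes: 6.19%, 4.6%, 19.2% and 12.7%). The 8 genes were chosen for their large spread between calves, so these shares are a description.

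Between 12 h and 0 h the fitted differences ran in both directions. ENSBTAG00000046133 had a log2 fold change of 8.55 (edgeR adjusted p = 0.914), ENSBTAG00000046537 of 6.62 and ENSBTAG00000046695 of 6.13. ENSBTAG00000047852 had a log2 fold change of -8.04, ENSBTAG00000047042 of -5.12 and ENSBTAG00000045632 of -3.84, each also with an edgeR adjusted p of 0.914. ENSBTAG00000045494 had -3.02 (edgeR adjusted p = 0.914) and ENSBTAG00000047154 had 0.24 (edgeR adjusted p = 1). Leaving out each of the 27 calves in turn moved these values in both directions. The log2 fold change of ENSBTAG00000047042 ran from -6.88 (without replicate 9 at 12 h) to -1.98 (without replicate 4 at 0 h), and that of ENSBTAG00000045632 from -6.85 (without replicate 2 at 12 h) to -2.71 (without replicate 5 at 0 h). That of ENSBTAG00000047852 ran from -9.02 (without replicate 6 at 12 h) to -4.16 (without replicate 7 at 0 h). The 3 positive values stayed above 4 in these fits, at 7.67 to 10.14 for ENSBTAG00000046133, 4.99 to 7.89 for ENSBTAG00000046537 and 4.88 to 7.88 for ENSBTAG00000046695. Those of ENSBTAG00000045494 and ENSBTAG00000047154 changed sign.

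An exact permutation test of the difference in mean log2(CPM + 1), two-sided over all 48620 splits of 9 against 9, gives less weight to single high calves. Over the 24 comparisons of a gene between 2 groups, 1 had an unadjusted p under 0.05. It was ENSBTAG00000045632, with a difference of -3.46 on that log2 scale between 12 h and 6 h (mean 2.93 against 6.39, exact permutation p = 0.0389, unadjusted). Between 12 h and 0 h the same gene differed by -3.38 (exact permutation p = 0.0761). For the genes with the largest fitted fold changes the exact permutation p was 0.0824 (ENSBTAG00000046133), 0.259 (ENSBTAG00000047852) and 0.37 (ENSBTAG00000046537) in 12 h against 0 h.

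DESeq2 with its defaults, over the same genes, called 2 of the 8 in 12 h against 0 h (all genes: 0.0131%) and 1 for any difference (0.00872%). ENSBTAG00000046537 was higher at 12 h, with a DESeq2 log2 fold change of 6.06 (SE 1.25, adjusted p = 0.0138). ENSBTAG00000045494 was lower at 12 h, with -4.96 (SE 1.09, DESeq2 adjusted p = 0.0383). Both calls were made on counts that DESeq2 had altered. In groups of 7 or more replicates the tool replaces counts it takes for outliers by a value near the gene's trimmed mean, and it did so for 12 of the 216 counts of the 8 genes. Of these, 10 were on values, and 20 on values were left as deposited.

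For ENSBTAG00000045494, 4 of the 5 on counts were replaced, so that 5933 became 3, 1970 became 3, 1173 became 2 and 2341 became 9. The one on count that remained was the 666 of replicate 4 at 0 h, and the DESeq2 difference between 12 h and 0 h was fitted to that state of the data. The deposited counts were also fitted unaltered, with DESeq2's filter on genes with outlying counts switched off as well. In that fit the gene's log2 fold change was -3.11 (SE 1.80) and DESeq2 did not call it (adjusted p = 1).

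For ENSBTAG00000046537, the count of 5996 in replicate 9 at 12 h became 5, the 480 of replicate 5 at 6 h became 6 and the 95 of replicate 3 at 0 h, an off calf and the highest of its group, became 11, while the 7091 of replicate 5 at 12 h remained. With the deposited counts kept and that filter off, DESeq2 still called this gene in 12 h against 0 h (log2 fold change 6.79, SE 1.36, adjusted p = 0.00755). It was 1 of the 2 genes called there (0.00872% of all genes). The medians of the compared groups were 2.82 CPM at 12 h and 3.26 CPM at 0 h.

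**Figure D3:**
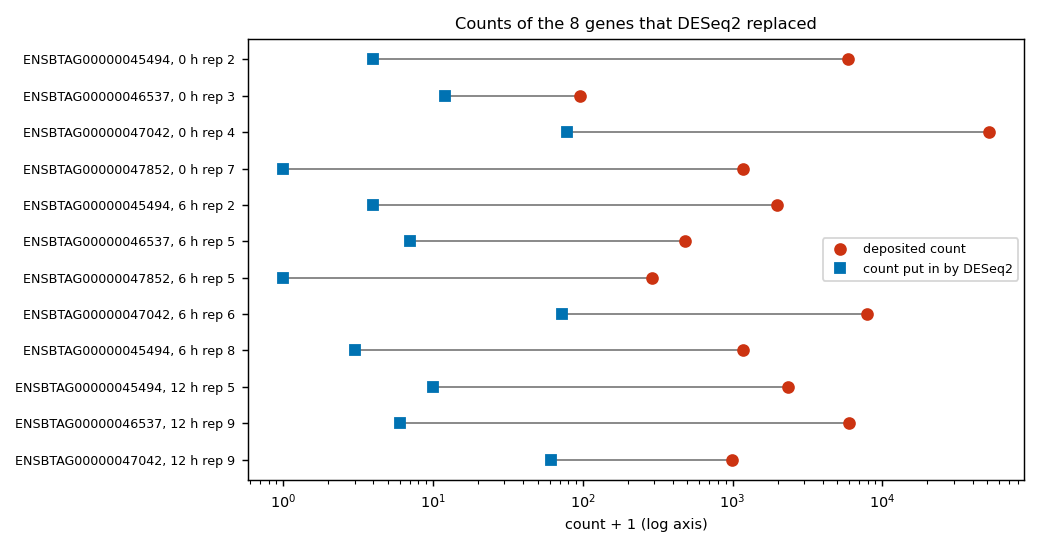
The 12 counts of the 8 genes that DESeq2 replaced (horizontal axis: count + 1, log scale; circles are deposited counts, squares the counts that DESeq2 put in their place; each line is a gene in a calf). Counts between 95 and 51633 were replaced by counts of 77 or less, in 4 of the 8 genes.

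Co-occurrence of the on states was described by counts. No gene of the 8 was on in 9 calves, 1 was on in 10 calves, 2 in 5 calves, 3 in 2 calves and 4 in 1 calf. Of the 28 pairs of genes, 14 shared no on calf, 11 shared 1 and 3 shared 2.

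The closest pair was ENSBTAG00000046133 and ENSBTAG00000046695. Both calves with ENSBTAG00000046133 on, replicates 3 and 5 at 12 h, also had ENSBTAG00000046695 on, at 8544 and 4490 CPM. In the other direction, 2 of the 4 calves with ENSBTAG00000046695 on had ENSBTAG00000046133 on. In replicate 6 at 12 h and replicate 9 at 0 h, where ENSBTAG00000046695 stood at 920 and 118 CPM, ENSBTAG00000046133 was off.

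The other pairs that shared 2 calves involved ENSBTAG00000047154. It was on together with ENSBTAG00000047042 in replicate 4 at 0 h and replicate 6 at 6 h, which are 2 of the 3 calves with ENSBTAG00000047042 on and 2 of the 7 with ENSBTAG00000047154 on. It was on together with ENSBTAG00000045494 in replicate 4 at 0 h and replicate 2 at 6 h, which are 2 of the 5 calves with ENSBTAG00000045494 on.

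Some calves carried several of the genes. Replicate 5 at 12 h had 4 on (ENSBTAG00000045494, ENSBTAG00000046133, ENSBTAG00000046537 and ENSBTAG00000046695), and the 8 genes together took 0.764% of its counts. Replicate 4 at 0 h had 3 on (ENSBTAG00000045494, ENSBTAG00000047042 and ENSBTAG00000047154), and there the 8 genes took 4.70% of the counts. Replicate 5 at 6 h had a different set of 3 on (ENSBTAG00000045632, ENSBTAG00000046537 and ENSBTAG00000047852). At the other end, the 8 genes together took 0.00239% of the counts of 1 calf fed at 12 h (replicate 7) and 0.00256% of those of 1 fed at 6 h (replicate 1).

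**Figure D4:**
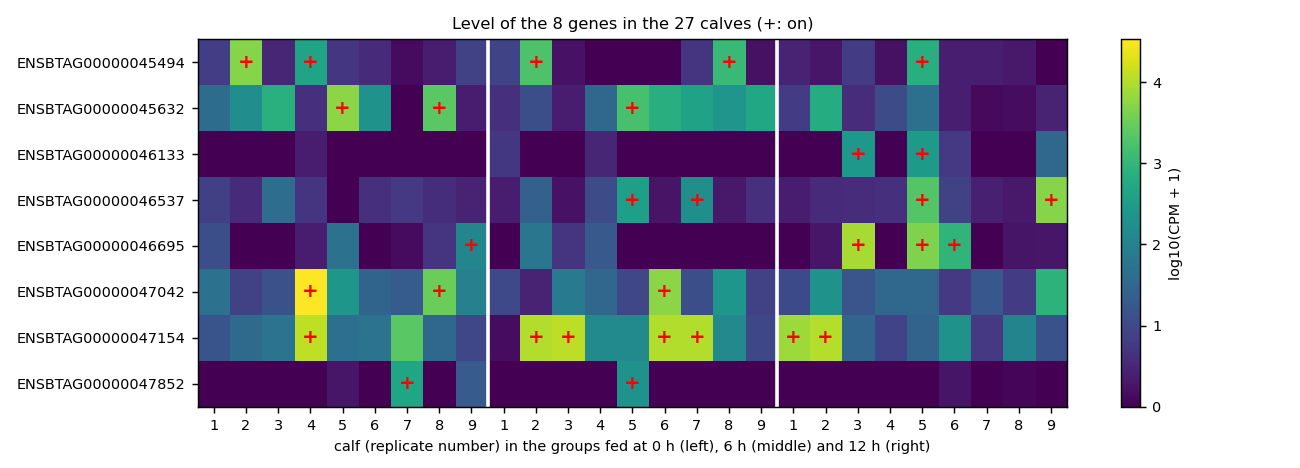
Levels of the 8 genes (rows) in the 27 calves (columns, by replicate number in the groups fed at 0 h, 6 h and 12 h; colour: log10(CPM + 1); plus signs mark the on state). The 30 on values are scattered over 18 calves, 6 in each group, with 4 in a single calf fed at 12 h and 3 each in a calf fed at 0 h and a calf fed at 6 h.

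The genes whose patterns were most like each of the 8 were sought among the 11709 genes that reached 10 CPM in a calf. The 8 genes themselves were left out as candidates, so likeness between them was not ranked. Likeness was Pearson's r of log2(CPM + 1) over the 27 calves, which share library and depth between the genes compared. As the highest of many values these are descriptions without a test. Between the first-placed genes, r ran from 0.583 for ENSBTAG00000047042 to 0.815 for ENSBTAG00000046695. None of these first-placed genes was on in any calf, but the 8 genes, which were on by the rule, had been left out. The gene most like ENSBTAG00000046695, ENSBTAG00000004768, ran from 18.9 to 68.7 CPM over all calves, with 40.8 to 68.7 CPM in the 4 on calves and 18.9 to 59.2 CPM in the 23 others. Its range was 3.63-fold, and its levels in on and off calves overlapped.

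The gene most like ENSBTAG00000046537, ENSBTAG00000004679, had r = 0.730. It stood at 274 to 413 CPM in the 4 on calves and at 112 to 268 CPM in the 23 off calves, so that these ranges did not overlap. That likeness was lower by rank (Spearman's rho = 0.497). Both genes most like ENSBTAG00000047852 were also apart between its on and off calves. ENSBTAG00000011656 stood at 92.6 to 95.5 against 61.2 to 90.8 CPM, and ENSBTAG00000001181 at 37.25 to 43.26 against 19.31 to 32.95 CPM. For every other gene found by likeness the ranges overlapped. All were chosen by likeness to these levels, so a separation is a description.

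Just outside the rule, ENSBTAG00000047370 was on in replicate 2 at 6 h at 2341 CPM, and its second calf, replicate 5 at 12 h, stood at 71.5 CPM against a bound of 100 CPM. ENSBTAG00000024177 (52.1 and 51.2 CPM in its highest 2 calves) and ENSBTAG00000047501 (67.7 and 49.8 CPM) were the next closest and were on in no calf. Just inside, the second calf of ENSBTAG00000045632 stood at 2305 CPM against its bound of 1594 CPM. Across the 2128 genes that reached 100 CPM in any calf, the highest calf was typically 1.32 times the gene's median (median over genes, with 99% of genes at or below 4.04 times). For the 8 genes it was 174 to 8544 times. Medians under 1 CPM were taken as 1 for all of these genes. The rule asks for at least 50 times the median, so this contrast follows from the choice and is a description.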

How the data were processed

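The values are raw counts per gene in 1 deposited table of 27 libraries and 24616 genes. Per the labels' protocols, total RNA of frozen ileum was made into TruSeq libraries. Per the submitters' processing notes, the authors used TopHat2 2.1.1, TopHat, SAMtools 1.4 and HTSeq with the genome build UMD3.1; annotation release and handling of multiply matching reads: not given in the sources used here. The kit does not mark strand. Counts of a gene with near-identical copies, or one overlapping another gene on either strand, are thus uncertain. All columns were matched to a calf by name, 0 columns were left out, and 0 rows named no gene.

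CPM used column totals. The 8 genes and the tests were chosen with earlier results of these data known. The named genes were the 8, the 2 genes from outside the 8 most like each by Pearson's r, and the 3 genes closest to the rule. Fits used R 4.3.3, edgeR 4.0.16 with TMM scaling, robust estimation, all 27 libraries and all 22939 genes with a count, at an adjusted p of 0.05; filterByExpr kept 11429 genes and 3 of the 8. The fit was tested on simulated data of genes kept by filterByExpr. No on state in single calves was simulated, so that test does not cover genes like the 8. Alternatives were RLE scaling, filterByExpr, the compared groups alone, DESeq2 1.42.0 with and without replacement of outlying counts, limma 3.58.1 voom, no robust option, a replicate block, a threshold of 0.1, leaving out each calf, and other bounds of the on state. DESeq2 without replacement also ran without its filter on outlying counts. Every limma voom fit used a quality weight for each library. The permutation test and 2 further forms of the block were added after seeing the data. Exact tests and figures were made in Python 3.11.15. Replicate numbers came from the titles. Depth ran from 972578 to 7125552 counts, and intervals cover counting error only.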

Additional observations from a re-analysis of the deposited data

Results flagged for a closer look

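Taking each gene within each feeding group gives 24 sets of 9 calves, and in 19 of them the extreme calf was separated from the rest by a large share of the set's range (past Dixon's 95% critical value). That value is passed by about 1 set in 20 of normally distributed values. The CPM used here are skewed and often 0, and these genes were chosen for calves far above the rest. That rate therefore does not apply, and the count is a description only. In 12 sets the calf apart was on. These were 5147 CPM at 0 h and 683 at 12 h for ENSBTAG00000045494, 5530 at 0 h and 1654 at 6 h for ENSBTAG00000045632, and 358 at 6 h and 5113 at 12 h for ENSBTAG00000046537. They also included 118 CPM at 0 h for ENSBTAG00000046695, 33888 at 0 h and 5580 at 6 h for ENSBTAG00000047042, 12663 at 0 h for ENSBTAG00000047154, and 452 at 0 h and 215 at 6 h for ENSBTAG00000047852.

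In the other 7 sets the calf apart was off. ENSBTAG00000047042 stood at 844 CPM in replicate 9 at 12 h, with the next calf at 210, and ENSBTAG00000045632 at 637 CPM in replicate 2 at 12 h, with the next at 45.2. ENSBTAG00000046695 stood at 59.0 CPM in replicate 2 at 6 h and ENSBTAG00000046537 at 39.9 CPM in replicate 3 at 0 h. The last 3 were near the detection limit: ENSBTAG00000046133 at 1.31 CPM in replicate 4 at 0 h and 4.42 CPM in replicate 1 at 6 h, and ENSBTAG00000047852 at 0.841 CPM in replicate 6 at 12 h.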

How the results depend on the processing

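The call of 0 of the 8 genes held in each comparison under RLE scaling, limma voom, a threshold of 0.1 (edgeR) and leaving out each calf (range 0 to 0), for the 3 genes kept by filterByExpr, and with the compared groups alone in the 3 pairwise comparisons, the ones fitted that way. DESeq2 called 2 genes in 12 h against 0 h and 1 for any difference, DESeq2 without replacement 1 in 12 h against 0 h, and edgeR without the robust option 2 for any difference, ENSBTAG00000046133 and ENSBTAG00000046695 (5 of all 22939 genes).

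With the replicate number as a block in edgeR, 5, 8, 7 and 8 of the 8 genes were called (between 6 h and 0 h, 12 h and 0 h, 12 h and 6 h, and for any difference), as were 41, 59, 83 and 118 of all 22939 genes. In that fit the prior degrees of freedom were infinite, so the spread of single genes was not used: the quasi-dispersion of the 8 genes was set to 0.393 to 0.845, where their deviance per degree of freedom was 8.75 to 94.8. The block in limma voom called 0 of 8 and the block with filterByExpr 0 of 3, in each comparison. Deviations of same-numbered calves correlated at -0.301 to 0.266, over 0.1 in 5 of 27 pairs. Within each group the replicate numbers followed the order of the numbers in the column names. Whether replicate numbers pair the calves was not tested.

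Fitted differences changed sign in 18 fits, without a call in any. In 6 h against 0 h the log2 value became 0.96 for ENSBTAG00000045632 in limma voom and 0.078 in the permutation test, and with the block in limma voom -0.10 for ENSBTAG00000046133 and 0.84 for ENSBTAG00000046695. In 12 h against 6 h it became 0.53 for ENSBTAG00000047042 with the block (0.53 also with filterByExpr) and 0.32 for ENSBTAG00000047852 in DESeq2. In 12 h against 0 h ENSBTAG00000047154 went to -0.34 in limma voom and -2.21 with the block there. Leaving out a calf gave ranges across 0 in 6 h against 0 h for ENSBTAG00000045494 (-2.17 to 2.53, highest without replicate 2 at 0 h), ENSBTAG00000046695 (-3.405 to 0.13, replicate 9 at 0 h), ENSBTAG00000047042 (-6.58 to 0.50, replicate 4 at 0 h) and ENSBTAG00000047852 (-9.85 to 2.68, replicate 7 at 0 h). It did so in 12 h against 0 h for ENSBTAG00000045494 (-8.66 to 0.51, highest without replicate 2 at 0 h) and ENSBTAG00000047154 (-0.83 to 2.74, lowest without replicate 2 at 12 h), and in 12 h against 6 h for ENSBTAG00000047042 (-4.21 to 1.46, replicate 6 at 6 h) and ENSBTAG00000047852 (-7.85 to 1.82, replicate 5 at 6 h).

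Other bounds of the on state (50 or 200 CPM, 20 or 100 times the median, other totals) gave 27 to 34 on values and 7 to 10 genes on in at least 2 calves. At 100 times the median ENSBTAG00000045632 was on in 1 calf and no longer met the rule, and at 20 times it was on in 5. The other 7 genes met the rule under each bound, and no exact test by feeding group passed 0.05 under any. Genes on in 3 or fewer calves could not pass. At 200 CPM these included ENSBTAG00000046695, on in 0, 0 and 3 calves at 0 h, 6 h and 12 h (exact p = 0.0862, the smallest possible). Of the 16 genes named as most like the 8, 2 stayed among the nearest 2 by Spearman's rho and 7 with a pseudocount of 10 CPM.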

Other observations

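A further 5 genes were on in exactly 1 calf each. Besides ENSBTAG00000047370, ENSBTAG00000048174 stood at 1156 CPM in replicate 1 at 0 h with the next calf at 2.23, and ENSBTAG00000045657 at 594 CPM in replicate 4 at 12 h with the next at 9.69. The other 2 were ENSBTAG00000047046 at 193 CPM in replicate 2 at 0 h and ENSBTAG00000045532 at 174 CPM in replicate 8 at 0 h. All 13 genes on in at least 1 calf carry an identifier number above 45000, a range noticed after the values were seen. That range holds 13.15% of the genes in the table and 4.37% of the 2128 genes that reach 100 CPM in a calf.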
